A study of Mus musculus with 4 samples.

Results

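Irf7, Irf9, Stat2, Irf1 and Irf3 encode transcription factors of interferon signalling, and Ifnar1, Ifnar2, Ifngr1 and Ifngr2 encode the receptor chains for type I interferons and for interferon gamma. These 9 mouse genes were measured in brown preadipocytes labelled wild type or knockout for the histone methyltransferase G9a. They were chosen by name, and a probe set was taken where the platform annotation gave it 1 gene symbol that was among the 9 names. The array carried 17 such probe sets, for all 9 of the 18193 genes with a probe set of 1 symbol, and 15 of the 17 passed the level filter given below. Each of the 9 genes had at least 1 probe set that passed.

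The cells were immortalized brown preadipocytes, precursors of brown fat, of a mixed C57/BL6-129 strain, and all of them carried floxed G9a alleles (G9af/f). The control group received vector and is labelled wild type, and the other group received Cre, the recombinase that deletes floxed sequence, and is labelled a G9a knockout. Each group held 2 arrays, numbered 1 and 2. Whether same-group arrays stem from separate cultures or lines is not in the labels. Xist, the RNA of the inactive X chromosome, was at 11049 and 9810 in vector 1 and Cre 1 but at 41.8 and 58 in vector 2 and Cre 2. The Y-linked gene Eif2s3y went the other way, with 141 and 228 in vector 1 and Cre 1 against 1127 and 1265 in vector 2 and Cre 2. The 2 arrays of a group were therefore not repeats of 1 cell population, and the p-values without a block take the difference between the numbers as spread. The study's title concerns G9a, PPARγ and adipogenesis, and its design text names expression changes in the knockout as its subject.

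In type I interferon signalling, the receptor of IFNAR1 and IFNAR2 activates the Janus kinases TYK2 and JAK1. STAT2 is then phosphorylated and joins IRF9 in the complex ISGF3, which binds interferon-stimulated response elements (ISRE). Interferon gamma acts through IFNGR1 and IFNGR2 on STAT dimers that bind gamma-activated sites (GAS), and Irf1 is a well-known target of that arm. IRF3 is held ready in resting cells and turned on by phosphorylation, while IRF7 is usually scarce and is itself made in response to interferon.

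The promoters are shown first because Irf7 and Irf9 had the largest differences of the 9 genes, and because Stat2 and Irf1 held the motifs of ISGF3 and of STAT dimers. The sequences are from RefSeq (GRCm38.p6), run from 250 bases before to 50 bases after an annotated start, and read 5′ to 3′ on the gene's strand. Capitals mark a match to the ISRE core (GAAA, any 2 bases, GAAA) or to the GAS core (TTC, any 3 bases, GAA), searched on both strands. Irf7 lies at chr7:141266375-141266674 (minus strand), the first annotated start of Irf9 at chr14:55603735-55604034 (plus strand), Stat2 at chr10:128270248-128270547 (plus strand) and the first start of Irf1 at chr11:53769764-53770063 (plus strand).
Irf7: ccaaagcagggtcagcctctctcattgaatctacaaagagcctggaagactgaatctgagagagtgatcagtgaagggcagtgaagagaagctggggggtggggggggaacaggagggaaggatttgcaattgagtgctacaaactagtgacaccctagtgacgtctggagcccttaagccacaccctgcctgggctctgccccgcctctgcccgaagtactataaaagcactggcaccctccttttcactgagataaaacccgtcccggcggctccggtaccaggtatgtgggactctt
Irf9: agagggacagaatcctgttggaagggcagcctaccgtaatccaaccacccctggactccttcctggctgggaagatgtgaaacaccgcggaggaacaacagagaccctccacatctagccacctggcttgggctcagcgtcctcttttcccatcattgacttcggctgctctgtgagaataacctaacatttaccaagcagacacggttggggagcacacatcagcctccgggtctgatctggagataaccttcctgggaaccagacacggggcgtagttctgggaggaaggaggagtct
Stat2: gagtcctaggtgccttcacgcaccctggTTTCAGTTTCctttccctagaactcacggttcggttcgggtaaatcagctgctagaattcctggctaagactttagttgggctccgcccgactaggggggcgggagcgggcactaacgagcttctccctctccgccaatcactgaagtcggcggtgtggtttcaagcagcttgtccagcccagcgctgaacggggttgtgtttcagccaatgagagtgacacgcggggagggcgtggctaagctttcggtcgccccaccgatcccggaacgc
Irf1: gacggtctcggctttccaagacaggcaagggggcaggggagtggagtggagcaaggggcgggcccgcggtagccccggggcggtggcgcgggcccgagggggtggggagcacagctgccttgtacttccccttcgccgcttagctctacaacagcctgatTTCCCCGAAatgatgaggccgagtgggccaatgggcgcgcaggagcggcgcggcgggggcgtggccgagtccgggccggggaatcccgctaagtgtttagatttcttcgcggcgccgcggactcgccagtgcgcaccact

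All 9 genes had a promoter in the RefSeq table, 11 windows in all, since Irf1 and Irf9 each had 2 annotated starts. The ISRE core was found in 1 window, that of Stat2, as TTTCAGTTTC on the gene's strand from -222 to -213. Among all 32851 promoter windows of 300 bases in the table, 3.44% held this core. The GAS core was found in 3 windows, and in 8.30% of all windows. It stood in Irf1 as TTCCCCGAA from -90 to -82, in Ifnar1 as TTCACGGAA from -5 to 4, and in Ifnar2 as TTCCTGGAA from -214 to -206. No match overlapped another. The windows of Irf7, Irf9, Irf3, Ifngr1 and Ifngr2 held neither set of letters. A match is a description of the letters, and no match says only that these letters are not in the window.

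**Figure D1:**
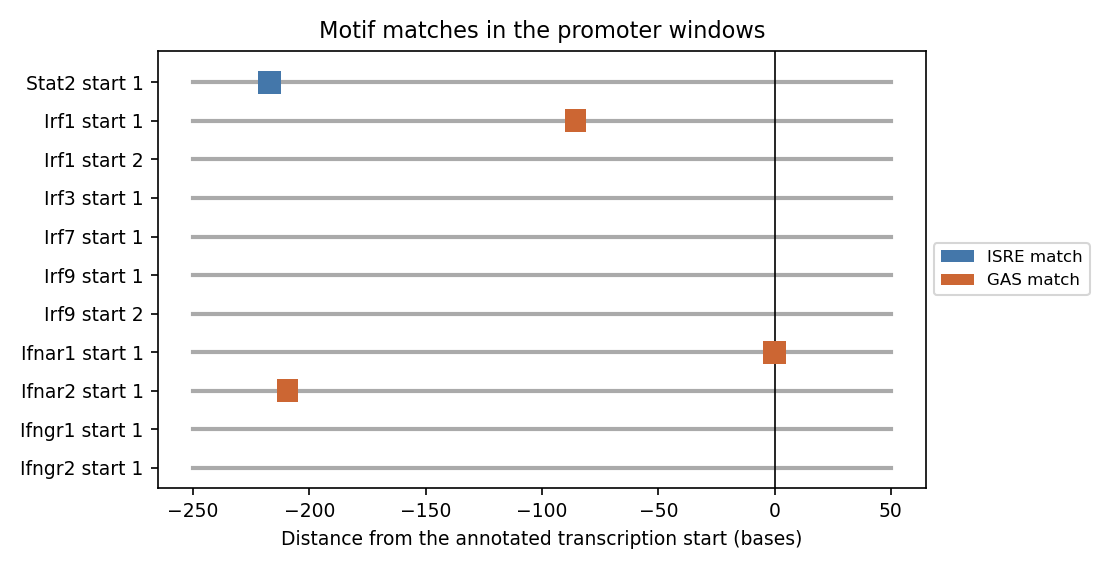
Horizontal lines are the 11 promoter windows of the 9 genes, and the x axis is the distance in bases from the annotated transcription start. Blue marks the 1 ISRE match (Stat2) and orange the 3 GAS matches (Irf1, Ifnar1, Ifnar2).

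The deposited values were MAS5 signals on a linear scale, 1 per probe set and array, with array medians between 50.6 and 78. Ehmt2, which encodes G9a, read 2682 and 2688 in the vector arrays and 953 and 912 in the Cre arrays, and it fell once the replicate number was a block (limma adjusted p = 0.000281, and 0.227 without the block). Which exons Cre deletes is not in the labels, and this probe set may lie outside them. Of 13 mesenchymal and preadipocyte markers with a named probe set, 12 passed the filter. Of these 12, 5 were higher and 3 lower in both numbers (32.8% and 30.2% of all genes tested). Dlk1, a preadipocyte marker, read 5421 and 5238 in the vector arrays and 1690 and 4882 in the Cre arrays. Dlk1, Pdgfra and Cd34 were lower in Cre without overlap (13.6% of all genes tested) and 0 were higher (17.5%). None of the 3 passed the test. Col3a1, a collagen gene, was the 1 of the list that rose with the block (limma adjusted p = 0.0155), as did 3.25% of all genes. Zfp423, a preadipocyte regulator, read between 2.1 and 3.8 on all arrays. Of 15 leukocyte markers 3 passed, with summed signals of 999 and 997 in the vector arrays and 1360.5 and 924 in the Cre arrays. Such sums are weighted towards bright probe sets, here Cd14, at 539 and 408 in the vector arrays and 560 and 352 in the Cre arrays. Among the 15, 2 (Csf1r and Flt3) were higher and 3 lower in both numbers, beside 5719 higher and 4899 lower of the 18193 genes without the filter. Csf1r, a macrophage receptor, read 143 and 163 in the vector arrays and 194 and 222 in the Cre arrays. Ptprc, the pan-leukocyte marker, read between 2.9 and 11.9. None of the 8 endothelial markers passed. Of these, 4 were higher without overlap (18% of all genes without the filter) and 0 lower (13.6%). Their summed signals were 205 and 129.5 in the vector arrays and 386 and 226.5 in the Cre arrays. The part of other cell types in the differences below was not tested, and fewer cells of a type and less RNA per cell cannot be told apart.

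For the comparison of Cre with vector, signals were quantile normalized and taken as log2(signal + 16), and probe sets with a mean log2 value at or above the 50th percentile were tested. Fold changes are given on this scale and are too small for dim genes. A gene is given by its brightest probe set. Levels of different probe sets are not comparable, so each is read only across the arrays.

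Irf7 and Irf9 had the largest differences of the 9 genes, both towards higher signal in the Cre cells, and neither passed the test across all probe sets. The other 7 genes differed by less than 1.5-fold at their brightest probe set. With limma, 0 of the 9 genes had an adjusted p under 0.05, and 0% of the 11079 genes tested did (0.00888% of the 22519 probe sets). At an unadjusted p under 0.05, 2 of the 9 (Irf7 and Irf9) were higher and 0 lower, beside 421 higher and 141 lower genes of all those tested. With the replicate number as a block, 0 of the 9 passed again, while 4.23% of all genes passed, 3.25% rising and 0.984% falling. For 2 arrays a group, the smallest two-sided p of an exact permutation test is 0.333.

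Irf7 encodes the factor that amplifies type I interferon production. Its probe set (1417244_a_at) read 87.5 and 95.5 in the vector arrays and 225 and 186 in the Cre arrays. Both Cre arrays lay above both vector arrays. The vector signals were close to each other as deposited, where the medians of these arrays were 67.2 and 50.6. After normalization they were less close: number 2 minus number 1 was 0.42 in the vector arrays and 0.022 in the Cre arrays (log2). The log2 difference was 0.97 ± 0.28 (SE; 95% interval 0.30 to 1.64), a 1.96-fold higher signal in Cre (limma adjusted p = 0.811). Within replicate numbers 1 and 2 it was 1.17 and 0.77, or 2.26-fold and 1.71-fold. Irf7 was the 1 gene of the 9 that was at least 1.5-fold higher in both numbers, as were 3.8% of all genes. Among the 11079 genes it ranked 282 from the highest difference.

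Irf9 encodes the DNA-binding subunit of ISGF3. Its probe set (1421322_a_at) read 221 and 265 in the vector arrays and 551 and 373.5 in the Cre arrays. The groups did not overlap, and Cre 1 stood above Cre 2. The log2 difference was 0.86 ± 0.29 (95% interval 0.15 to 1.58), or 1.82-fold (limma adjusted p = 0.999). With the replicate block the 95% interval was 0.35 to 1.38 (limma adjusted p = 0.0811). The replicate numbers gave unequal differences of 1.31 and 0.42, or 2.48-fold and 1.34-fold. On the log2 scale, number 2 minus number 1 was 0.49 in the vector arrays and -0.41 in the Cre arrays. Irf9 ranked 339 from the highest difference.

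Stat2, whose protein partners IRF9 in ISGF3, gave no difference beyond the spread. Its brighter probe set (1450403_at) read 96.8 and 72.7 in the vector arrays and 98.4 and 96.7 in the Cre arrays. The other (1421911_at) read 69 and 56.1 in the vector arrays and 80.1 and 62 in the Cre arrays. The groups overlapped in both probe sets, which lay at the 56.2th and 51.6th percentiles of mean level, just inside the filter. The log2 differences were 0.079 ± 0.29 (95% interval -0.62 to 0.78) and 0.036 ± 0.29 (-0.66 to 0.73), so a difference of the size measured for Irf7 lay outside both intervals. Both probe sets were dim and their signal over background is unknown, so a true change of that size in Stat2 is not excluded. Within numbers 1 and 2 the brighter probe set gave -0.11 and 0.27. Whether Stat2 and Irf9 differed from each other in this was not tested.

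Irf1 encodes a factor made quickly in response to interferon gamma. Its probe set (1448436_a_at) read 927 and 742 in the vector arrays and 1034 and 876 in the Cre arrays. Arrays numbered 1 were the higher ones in each group, and in the deposited signals the groups overlapped. After quantile normalization Cre 2 and vector 1 both stood at 9.84 on the log2 scale, with Cre 2 just above. The log2 difference was 0.22 ± 0.24 (95% interval -0.36 to 0.81; limma adjusted p = 0.999), with 0.20 and 0.25 within the numbers.

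Irf3 encodes the factor that starts interferon beta transcription after nucleic acid sensing. Its 4 probe sets did not point 1 way. The brightest (1426111_x_at, of a kind that can cross-hybridize) read 1852 and 1720 in the vector arrays and 2123 and 1909 in the Cre arrays, without overlap, a log2 difference of 0.19 ± 0.20. The second (1416898_a_at) read 470 and 280 in the vector arrays and 753 and 351 in the Cre arrays. It differed by 0.49 ± 0.38, with 0.71 and 0.26 within the numbers, and arrays numbered 1 were higher than those numbered 2 in both groups. The third (1435271_at) had signals of 189 and 194 in the vector arrays and 202 and 159 in the Cre arrays, a difference of -0.13 ± 0.25. The fourth (1438721_a_at), below the filter and not tested, read 42.3 and 46 in the vector arrays and 47.2 and 31.3 in the Cre arrays. For none of the 3 tested did the difference pass (limma adjusted p = 0.999 each).

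**Figure D2:**
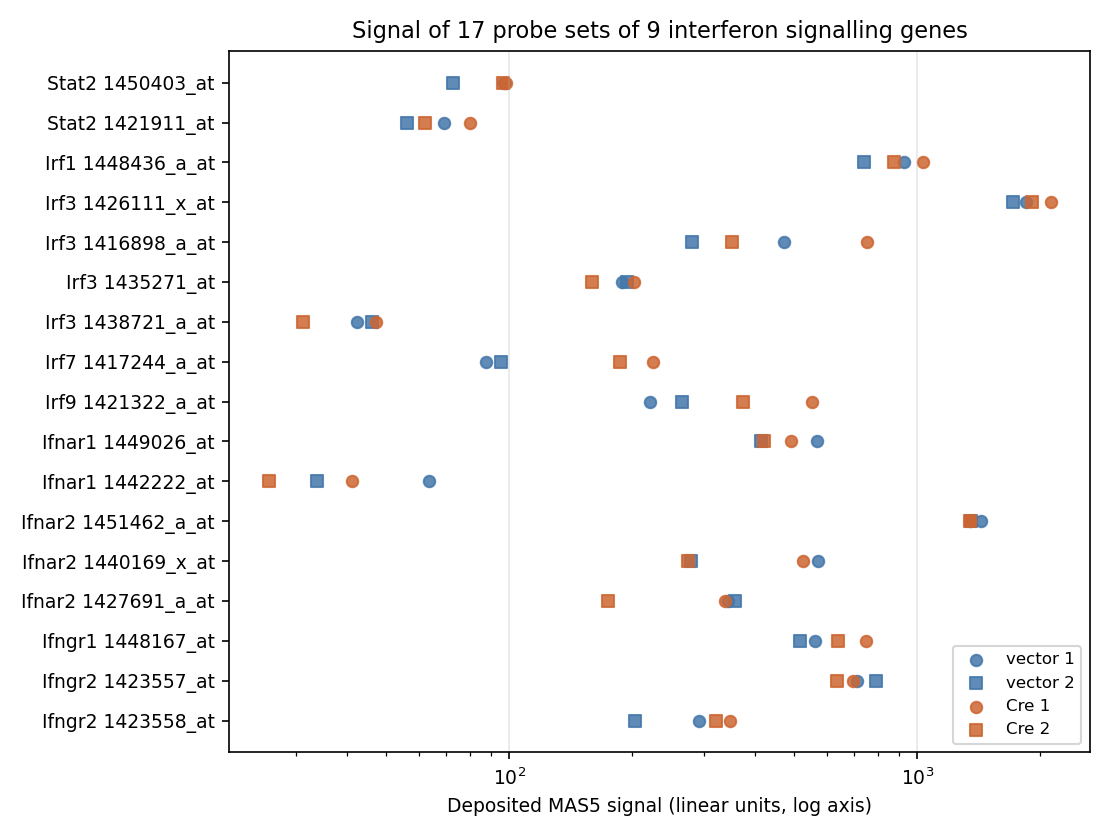
Deposited MAS5 signal (linear units on a log axis) of each of the 17 probe sets, with 1 point per array: blue for vector, orange for Cre, circles for replicate number 1 and squares for number 2. The orange points of Irf7 (186 and 225) and Irf9 (373.5 and 551) lie to the right of the blue ones, while in many other probe sets the colours mix.

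Among the receptor chains, only Ifngr1 was higher in both numbers at its brightest probe set, also under both other scalings tried. Ifngr1 encodes the ligand-binding chain of the interferon gamma receptor. Its probe set (1448167_at) read 560.5 and 516 in the vector arrays and 747 and 640.5 in the Cre arrays. The groups did not overlap. The log2 difference was 0.37 ± 0.23 (95% interval -0.20 to 0.93; limma adjusted p = 0.999), or 1.29-fold, with 0.45 and 0.29 within numbers 1 and 2.

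Ifngr2 encodes the signalling chain of the same receptor, and its 2 probe sets differed in opposite directions. The brighter (1423557_at) read 709.8 and 794 in the vector arrays and 694 and 637 in the Cre arrays, both Cre values lower, a log2 difference of -0.15 ± 0.24. The dimmer (1423558_at) read 291 and 203 in the vector arrays and 348 and 321 in the Cre arrays, both Cre values higher, a difference of 0.38 ± 0.24. Neither passed (limma adjusted p = 0.999 for both), so the 4 arrays give no single direction for this gene.

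Ifnar1 and Ifnar2 encode the chains of the type I receptor. The brightest probe set of Ifnar2 (1451462_a_at) read 1434 and 1353 in the vector arrays and 1347 and 1349 in the Cre arrays. Its log2 difference was -0.0072 ± 0.21, with a 95% interval of -0.52 to 0.50. The deposited Cre signals lay just below the vector ones, and after normalization the groups overlapped. A second probe set (1440169_x_at) read 570.2 and 526 in the arrays numbered 1 (vector and Cre) and 279 and 274 in those numbered 2. It separated the replicate numbers (-0.78 and -0.76 for number 2 minus number 1 in vector and Cre) more than the treatments (-0.081 ± 0.39). The third (1427691_a_at) read between 338 and 358 in 3 arrays and 174 in Cre 2. Its difference was -0.52 ± 0.30, with -0.075 and -0.96 within numbers 1 and 2, so most of it came from Cre 2.

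Ifnar1 showed no difference beyond the spread. Its brighter probe set (1449026_at) read 569 and 415 in the vector arrays and 491 and 421 in the Cre arrays, a log2 difference of -0.095 ± 0.24 (95% interval -0.69 to 0.50). The dimmer (1442222_at), below the filter, read 63.4 and 33.8 in the vector arrays and 41.1 and 25.7 in the Cre arrays, each below its array's median. In the RefSeq annotation Ifnar2, Il10rb, Ifnar1 and Ifngr2 follow each other in this order on chromosome 16. Il10rb, a receptor chain shared by interleukin 10 and lambda interferons, read 1100.2 and 891 in the vector arrays and 1436 and 827 in the Cre arrays, and the groups overlapped.

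Counted together, 5 of the 9 genes (Irf1, Irf3, Irf7, Irf9 and Ifngr1) were higher in Cre within both replicate numbers, where 32.8% of all genes tested were. Only 3 (Irf7, Irf9 and Ifngr1) were so after centring the arrays on their medians, which shifted the median of all genes to -0.11, and Stat2 joined the 5 with the scaling as deposited. The same 5 had no overlap of the groups (17.5% of all genes, higher in Cre). Ifngr2, at its brighter probe set, was the 1 gene that was lower in both numbers (30.2% of all genes) and lower without overlap (13.6%). Its dimmer probe set was higher in both numbers and without overlap. Ifngr2 joined the 5 when the probe sets of a gene were averaged. Of the 15 probe sets tested, 8 were higher in both numbers (27.9% of all probe sets), 6 were higher without overlap (14.2%) and 2 lower without overlap (15.8%). The median difference was 0.19 over the 9, 0.22 over the 5 factors and -0.051 over the 4 receptor chains, against 0.0073 over all genes. With so few genes, these medians carry no test.

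**Figure D3:**
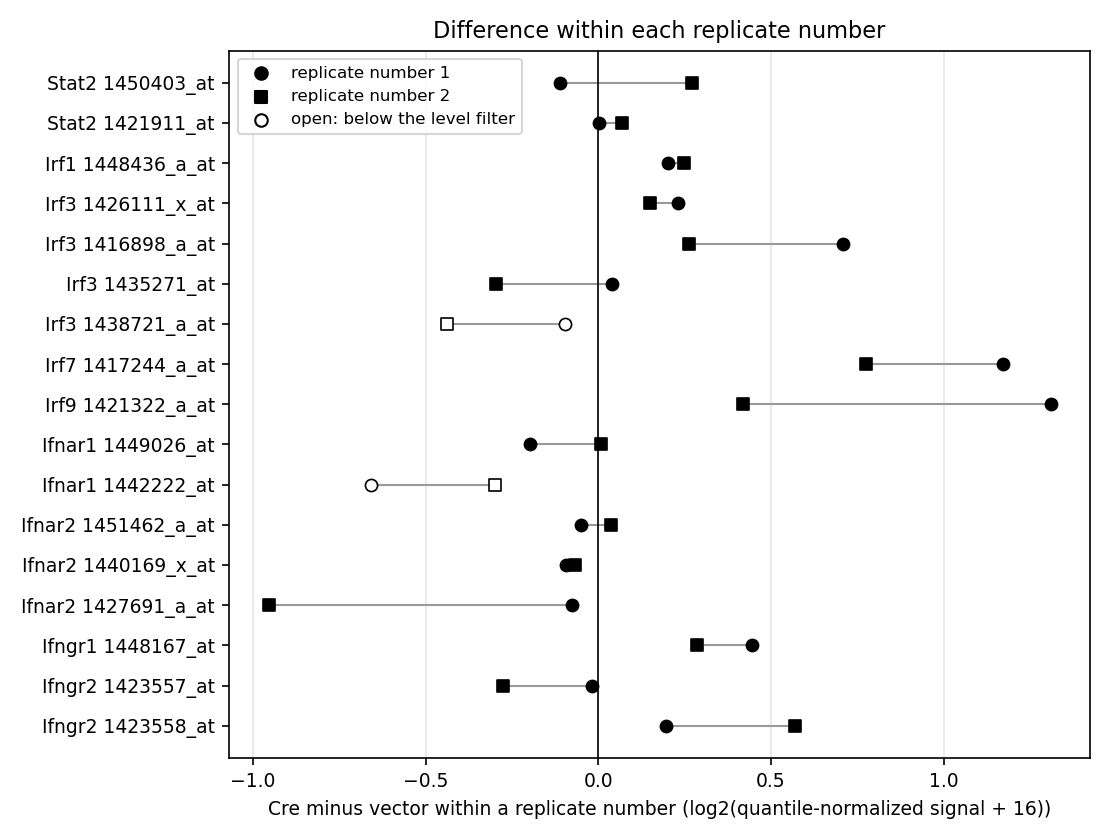
Cre minus vector within replicate number 1 (circles) and 2 (squares) for the 17 probe sets, on the log2(quantile-normalized signal + 16) scale. Open symbols are the 2 probe sets below the level filter. Irf7 (1.17 and 0.77) and Irf9 (1.31 and 0.42) reach farthest to the right, and the probe sets of Irf3, Ifnar2 and Ifngr2 differ among themselves.

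Genes around these 9 in the pathway were read from the same test. Of 9 named Janus kinase and other STAT genes on the array, 8 were tested, with a median difference of 0.0048, which was -0.14 after median centring and between -0.094 and 0.21 with 1 array left out. Jak3, a kinase of cytokine receptors with the common gamma chain, read 168 and 125 in the vector arrays and 334 and 194 in the Cre arrays (0.71 ± 0.28). Tyk2, the kinase bound to IFNAR1, read 339 and 243 in the vector arrays and 445.5 and 322 in the Cre arrays (0.36 ± 0.25). On the normalized scale these 2 of the 8 were higher in Cre without overlap (17.5% of all genes tested) and 0 were lower (13.6%). Stat3 and Stat5a differed by -0.32 ± 0.27 and -0.20 ± 0.34. In this list 0 genes passed with limma, with or without the block (4.23% and 0% of all genes tested).

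The other IRFs and the IRF2 binding proteins, 5 of them tested, had a median of -0.061, which was -0.32 without Cre 1, 0.088 without Cre 2 and -0.22 after median centring. Irf2bp1, Irf2bp2, Irf2 and Irf2bpl, the 4 with the smallest p, differed by -0.21 ± 0.29, -0.14 ± 0.51, -0.061 ± 0.25 and -0.037 ± 0.27. Irf8, a factor of myeloid cells, lay below the filter at 22.4 and 29.5 in the vector arrays and 25.4 and 35.3 in the Cre arrays. In this list too 0 genes passed in either model (4.23% of all genes with the block and 0% without).

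Upstream of IRF3 and IRF7, 14 kinase and adaptor genes were tested, with a median difference of 0.18 (0.032 after median centring and 0.052 without Cre 1), and 8 were higher in both numbers (32.8% of all genes). Ikbke, which encodes IKKε, a kinase that phosphorylates IRF3 and IRF7, read 106 and 22.1 in the vector arrays and 217 and 79 in the Cre arrays. It differed by 1.09 ± 0.55 (limma adjusted p = 0.999), with overlapping groups. Irak2, Ikbkg and Myd88, of Toll-like and interleukin 1 receptor signalling, differed by 0.47 ± 0.22, 0.45 ± 0.24 and 0.30 ± 0.22. They were the 3 of the list that were higher without overlap (17.5% of all genes), and Ticam1, an adaptor of Toll-like receptors, was the 1 lower without overlap (-0.075; 13.6% of all genes). Again 0 genes passed in either model (4.23% of all genes with the block and 0% without). Tbk1, the other kinase of IRF3, named after its value was seen, differed by 0.21 ± 0.27.

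The interferon genes themselves were dim. Of 10 with a named probe set, 9 lay below the array median on every array, and Ifnz was the 1 gene tested, at -0.13 ± 0.25. Ifnb1, interferon beta, read 36.3 and 25.7 in the vector arrays and 54.5 and 35.3 in the Cre arrays. Ifng read between 1.7 and 4.7 on all arrays.

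Among 17 negative regulators of JAK-STAT signalling the median was 0.038 (-0.11 after median centring and -0.00069 without vector 1), and the differences ran in both directions. Usp18, an interferon-induced protease that binds IFNAR2 and damps type I signalling, read 124 and 263 in the vector arrays and 566 and 697.5 in the Cre arrays. It was 3.25-fold higher (1.70 ± 0.44; limma adjusted p = 0.700), and rose with the replicate block (limma adjusted p = 0.00260). Socs5, of the suppressor of cytokine signalling family, read 3734 and 4038 in the vector arrays and 2460.4 and 2372 in the Cre arrays. It was 1.60-fold lower (-0.68 ± 0.17; limma adjusted p = 0.684), and fell with the block (limma adjusted p = 0.0128). Socs6 differed by -0.65 ± 0.35 and Ptpn6 by 0.48 ± 0.36, and neither passed in either model. Socs1, the inhibitor induced by interferon gamma, named after its value was seen, differed by 0.10 ± 0.40.

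Of 3 related class II cytokine receptor genes tested, F3, which encodes tissue factor, read 1905 and 1377 in the vector arrays and 936 and 868 in the Cre arrays. It was 1.76-fold lower (-0.81 ± 0.25; limma adjusted p = 0.917), and fell with the block (limma adjusted p = 0.0231). Il20rb and Il10rb differed by -0.30 ± 0.29 and 0.19 ± 0.32.

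Targets of the pathway had larger median differences than its signalling genes, a contrast that was not tested. The list of ISGF3 targets, Usp18 among them, was chosen with earlier results of these arrays known. Of the 29 with a named probe set, passed or not, 25 were higher in both numbers (31.4% of all genes without the filter), 21 were higher without overlap (18%) and 0 lower without overlap (13.6%), with a median difference of 1.003. Oas2, an oligoadenylate synthetase, was the 1 lower in both numbers, at signals of 36.3 and 12.9 in the vector arrays and 21.7 and 2.2 in the Cre arrays, below the filter. The 22 that passed had a median of 1.17, and the filter favours genes that are high in either group. Of these, 2 (Ifi27l2a and Oasl2) lay below the array medians in both vector arrays. Without the block 0 of the 22 were called, and with it 15 rose (3.25% of all genes) and 0 fell (0.984%). Ifi27l2a had the smallest p of the list, and it read 6.6 and 6.2 in the vector arrays and 192 and 342 in the Cre arrays, so the size of its difference depends on the added 16. Rtp4, Xaf1 and Ifit1 followed, at 1.82 ± 0.26, 2.25 ± 0.32 and 1.42 ± 0.24. The summed signal of the 29 named on the array, which is weighted towards bright probe sets, was 7276 and 8576 in the vector arrays and 15507 and 15748.5 in the Cre arrays. Of 21 named targets of the gamma interferon arm, which include Irf1, 16 were higher in both numbers and 13 higher and 1 lower without overlap, with a median of 0.35 (the shares of all genes are those just given). Which arm of interferon signalling the differences of either target list belong to was not tested. The 16 that passed the filter had a median of 0.72. With the block 6 of these rose and 0 fell, against 0 without it, beside 3.25% and 0.984% of all genes. They were led by Gbp7 (2.04 ± 0.32), Psmb8, an immunoproteasome subunit (1.79 ± 0.35), and the guanylate-binding proteins Gbp3 (1.19 ± 0.30) and Gbp2 (1.57 ± 0.45). With the filter at the 75th percentile the median of this list was 0.25.

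**Figure D4:**
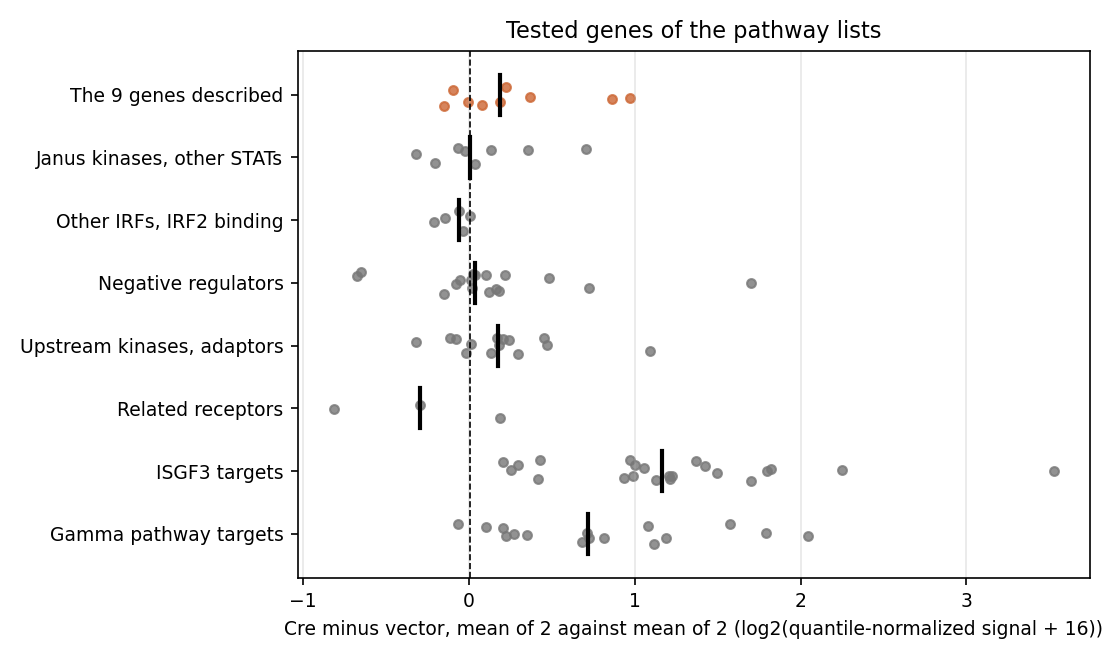
Each point is a tested gene of a list, placed by its Cre minus vector difference (mean of 2 arrays against mean of 2, log2(quantile-normalized signal + 16)). Thick bars are list medians and the dashed line is the median of all genes (0.0073). The ISGF3 and gamma pathway targets that passed the filter have medians of 1.17 and 0.72, and the 9 genes described have 0.19.

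Genes with the pattern nearest to that of 3 of the 9 genes were found by Euclidean distance between mean-centred log2 values over the 4 arrays. For Irf7 they were Hoatz (distance 0.070), Nppb (0.11), Prdm16 (0.12) and Flywch2 (0.14). Nppb, the B-type natriuretic peptide gene, read 280.4 and 297 in the vector arrays and 632.5 and 576 in the Cre arrays. For Irf9 they were Agrn (0.18), Serpinb8 (0.19), 5033430I15Rik (0.21) and Srgap1 (0.21). For Stat2 they were Asb16 (0.038), Stam2 (0.047), Trappc10 (0.050) and Sfrp4 (0.054). With 4 arrays, such nearness is a description only.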

How the data were processed

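Total RNA of 4 cell samples (2 vector, 2 Cre) was measured on Affymetrix mouse arrays. The authors deposited 1 signal intensity per probe set and array, made with MAS5 per the submitters' processing notes (version not given in the sources used here). Each array's mean after trimming 2% at each end was 500. Of 45101 probe sets, 64 controls were left out. Of the rest, 34945 had 1 gene symbol in the platform annotation, 932 several and 9160 none there, and 34741 were matched by gene ID to RefSeq (GRCm38.p6).

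Array medians differed, so intensities were quantile normalized, taken as log2(signal + 16), and filtered at the 50th percentile of mean level (22519 probe sets, 11079 genes). limma 3.58.1 (R 4.3.3) lmFit and eBayes with an intensity trend gave differences, standard errors and p-values, adjusted by Benjamini-Hochberg over all tested probe sets (threshold 0.05, with 2 residual and 4.10 prior degrees of freedom). With the block there were 1 residual and 9.81 prior degrees of freedom. The standard errors and p-values of both fits thus rest mostly on the spread shared by all probe sets, those with the block the most. The procedure was tested on simulated data with shifts between numbers drawn from those of the arrays. There the fit without the block called none of the planted changes and the fit with it most of them. The simulation gave all probe sets the same spread and shuffled the shifts among them, unlike the arrays. It therefore does not show what either fit misses here. Few calls without the block are not read as a lack of differences. The number of arrays limits the precision. Deposited signals are printed, and whether groups overlap is judged after normalization unless stated.

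Same-numbered arrays deviated together (correlation 0.603 across probe sets), and Xist and Eif2s3y separated the numbers in both groups. The pairing of arrays by number rests on that, not on the labels. Named were all 9 genes, up to 4 genes of each list with the smallest p, the 4 nearest in pattern to Irf7, Irf9 and Stat2, and Ehmt2. Named outside that rule, after their values were seen, were Irf8, Ifnb1, Ifng, Tbk1, Socs1, Ticam1, Oas2, Oasl2, Xist, Eif2s3y and the cell type markers. The 9 genes, lists and tests were chosen with earlier results of these data known. Alternatives were other pseudocounts (1 and 64), filters (none, 75th percentile), scalings, eBayes without trend or robust, the replicate block, each array left out, all probe sets of a gene averaged, and probe sets ending in _s_at or _x_at left out.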

Additional observations from a re-analysis of the deposited data

How the results depend on the processing

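For the 9 genes the count of calls was 0 under all 15 alternatives, the replicate block and each left-out array included. Irf7 kept its direction in all 14 alternatives that tested it (0.74 to 1.18), with limma adjusted p from 0.0560 with the replicate block to 1. Irf9 did so in all 14 (0.62 to 1.11), with limma adjusted p from 0.0811 with the block to 1. The number of genes higher in both replicate numbers was 3 with the 75th percentile filter, which left 6 of the 9 genes, and 3 with median centring. It was 6 with the scaling as deposited and 6 with the probe sets of a gene averaged. Left-out arrays moved Stat2 between -0.11 and 0.27, Ifnar1 between -0.24 and 0.046 and Ifnar2 between -0.040 and 0.025, across 0. They moved Irf1 between 0.10 and 0.35, Irf3 between 0.095 and 0.29 and Ifngr2 between -0.26 and -0.034, while median centring gave 0.064, 0.039 and -0.30 for these genes. Irf3 was 0.49 and Ifnar2 0.0045 without _s_at and _x_at probe sets, and Ifngr2 was 0.12 with its probe sets averaged. Over all probe sets, 2 were called, against 1 with a pseudocount of 1, 27 with median centring, 0 without the filter, 1 at the 75th percentile, 0 without the trend, 708 with the replicate block, 1 without _s_at and _x_at probe sets, and 7 to 28 with 1 array left out. The cause was not tested. No detection calls were used here, so for dim probe sets such as those of Stat2 signal over background is unknown.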
